A study of Mus musculus with 9 samples.

Results

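Transcripts of 10 core cell cycle genes, the D, E and A cyclins and their kinases, were followed in mouse embryonic fibroblasts made to overexpress p21 or p16. The genes were Ccnd1, Ccnd2, Ccnd3, Cdk4, Cdk6, Cdk2, Ccne1, Ccne2, Ccna2 and Cdk1, picked by gene symbol, and all 10 of them were found among the 24062 genes of the count table. The fibroblasts were of the C57BL/6 strain and received a lentivirus coding for p21 (3 libraries), a lentivirus coding for p16 (3 libraries) or, as control, the empty vector (3 libraries), and RNA was taken on day 10. By that day the overexpressing cells had entered senescence, a lasting arrest of division, per the labels, which give the status senescent to the control libraries as well. Vector promoters and the passage of the cells are not given in the labels, and no label says whether replicates were independent cultures; the p-values thus reflect the variation among these libraries alone, part of which may be technical.

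A cyclin is the regulatory partner that switches on a cyclin-dependent kinase (CDK). D cyclins with Cdk4 or Cdk6 start the phosphorylation of the retinoblastoma protein in G1, E cyclins with Cdk2 complete it at the entry into S phase, and cyclin A with Cdk2 and later Cdk1 carries the cell through S phase into mitosis. The inhibitor p16 binds Cdk4 and Cdk6, while p21 binds complexes of several cyclins and CDKs, and both leave the retinoblastoma family free to hold E2F factors in check. E2F factors and the MuvB complexes control transcription of the later cyclins and CDKs, the MuvB complexes through a promoter element called the cell cycle homology region, with NF-Y bound nearby.

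In cells overexpressing p21 the members moved in both directions. All 3 D cyclin genes rose, and Cdk4, Cdk2, Ccne2, Ccna2 and Cdk1 fell, most of all Ccna2 (2.28-fold) and Cdk1 (1.92-fold), whereas Cdk6 and Ccne1 did not pass the test. The calls of Ccnd1 and Ccne2 were each lost when any of 4 single libraries was left out. In cells overexpressing p16 Ccnd2 rose and Ccna2 fell, and with the replicate number as a block Ccnd1 also passed as higher and Cdk1 as lower. Between p21 and p16 cells, Ccna2, Cdk1 and Cdk2 were lower with p21, and with the block Ccnd1 and Ccnd2 also passed, as higher with p21. No label states that replicates are paired by number, so the calls with the block are those of an alternative setting.

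Promoter windows from 250 bases before to 50 after a RefSeq start site (build GRCm38.p6) were at hand for 6 of the 10 members: Cdk6, Ccne1, Cdk1, Cdk4, Cdk2 and Ccnd3, the last with 2 start sites. A search on both strands covered the cell cycle homology region in the form TTTGAA and the NF-Y motif CCAAT. For E2F the forms searched were TTGGCGC, then the form TTCGCGC, then also the form TTGCCGC, and as the last form TTCCCGC. The windows below are of Cdk1 and Cdk2, which fell in p21 cells, of Ccne1, which did not pass, and of Ccnd3, which rose. The window of Cdk4, which also fell, held no match and is not printed. They run 5′ to 3′ along the gene, with matches in capitals; reverse matches read as ATTGG for NF-Y and GCGGGAA or GCGGCAA for E2F.
Cdk1, chr10:69352863-69353162, minus strand: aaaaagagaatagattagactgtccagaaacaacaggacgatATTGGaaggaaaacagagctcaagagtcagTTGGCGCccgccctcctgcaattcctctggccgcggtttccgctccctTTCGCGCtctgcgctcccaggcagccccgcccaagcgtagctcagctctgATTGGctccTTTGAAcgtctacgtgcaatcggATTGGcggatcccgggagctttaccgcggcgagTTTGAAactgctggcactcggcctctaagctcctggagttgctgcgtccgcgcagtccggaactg
Cdk2, chr10:128705002-128705301, minus strand: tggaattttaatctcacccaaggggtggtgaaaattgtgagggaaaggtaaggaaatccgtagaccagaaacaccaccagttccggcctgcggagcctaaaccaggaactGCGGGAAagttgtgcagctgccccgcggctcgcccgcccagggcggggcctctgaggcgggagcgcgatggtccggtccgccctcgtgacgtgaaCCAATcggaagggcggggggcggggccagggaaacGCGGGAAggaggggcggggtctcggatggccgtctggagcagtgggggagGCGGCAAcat
Ccne1, chr7:38107441-38107740, minus strand: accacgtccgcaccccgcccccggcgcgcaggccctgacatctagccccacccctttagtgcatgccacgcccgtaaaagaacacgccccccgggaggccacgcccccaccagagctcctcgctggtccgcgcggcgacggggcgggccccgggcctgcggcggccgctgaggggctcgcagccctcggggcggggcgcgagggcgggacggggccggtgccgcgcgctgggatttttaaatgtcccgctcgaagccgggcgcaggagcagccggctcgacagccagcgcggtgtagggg
Ccnd3, chr17:47593217-47593516, plus strand: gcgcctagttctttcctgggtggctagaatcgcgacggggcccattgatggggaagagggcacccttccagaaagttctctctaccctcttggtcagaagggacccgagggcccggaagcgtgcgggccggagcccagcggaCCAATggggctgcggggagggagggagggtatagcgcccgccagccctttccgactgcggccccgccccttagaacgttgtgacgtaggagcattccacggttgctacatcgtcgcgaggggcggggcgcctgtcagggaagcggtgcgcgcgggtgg

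The Cdk1 window held 7 matches: TTTGAA at positions -71 and -15 from the start site, NF-Y motifs at -208, -80 and -48, and E2F forms at -178 and -130. The Cdk2 window held 4, a CCAAT at -45 and E2F forms at -140, -10 and 41. The Ccnd3 window shown held 1 match, a CCAAT at -108, and the windows of Cdk6, Ccne1 and the other Ccnd3 start site held none. That of Cdk4, which fell in p21 cells like Cdk1 and Cdk2, held none either. Among all 32851 promoter windows of the same length, 17.9% held TTTGAA, 37.4% held CCAAT and 9.57% held any of the E2F forms. The shorter TTGAA, inside TTTGAA, stood in 38.9% of windows and, among the 6 members with a window, in that of Cdk1 only. Ccna2, Ccnd1, Ccnd2 and Ccne2 had no window and were not searched. A match describes these letters and shows no bound factor, and a window without a match says nothing about the factor.

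Library totals ran from 56864342 to 76054820 counts. The overexpressed genes followed their labels: Cdkn1a, which encodes p21, was 3.09-fold higher in p21 than in control cells (adjusted p = 8.05e-06, edgeR), and Cdkn2a, which encodes p16 and p19Arf, was 16.1-fold higher in p16 than in control cells (adjusted p = 6.8e-07). Replicate 3 of each group stood apart in sex-linked transcripts, with Xist at 158 to 397 CPM (counts scaled to a common library size) against at most 1.34 elsewhere. The Y-linked Ddx3y stood there at 1.10 to 10.8 CPM, against 50.1 to 68.5 elsewhere. Replicate 3 was not alike across groups. Its Ddx3y was 10.8 CPM in p21, 1.10 in control and 1.26 in p16. Its Xist was 158, 397 and 262 CPM in that order. The 10 fibroblast markers, collagen genes among them, summed to 30415 to 33888 CPM in p21, 31501 to 36190 in p16 and 25828 to 37048 in control libraries, with none at 0. Of these 10, 2 were higher and 1, Pdgfra, lower in p21 than in control cells, or 30% called against 39.9% of all genes. The fibroblast count was 2 to 4 with 1 library left out. The 15 macrophage markers analysed summed to 28.6 to 50.8 CPM in p21, 11.9 to 16.7 CPM in p16 and 14.4 to 17.6 CPM in control libraries. Of the 14 tested, 10 (71.4%) were higher in p21 than in control cells, against 19.3% of all genes called higher. That count was 6 without control replicate 1 and 6 without p21 replicate 3. The part of these markers in the results below was not tested.

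Cells with p21 were set against cells with the empty vector first. Genes were tested with edgeR's quasi-likelihood test over 14572 genes, adjusted by Benjamini-Hochberg with a threshold of 0.05, and levels are CPM after TMM scaling. Of the 10 members 8 passed, 3 higher and 5 lower, against 39.9% of all genes (19.3% higher, 20.7% lower). The p21 and control libraries did not overlap for 7 of the 10 members, 2 above and 5 below, against 49.8% of all genes (24% above, 25.7% below). The median log2 fold change of the members was -0.06 and that of all genes -0.01, since the members moved in both directions. With replicates 1 and 2 only, 8 members passed again. In RNA from whole cultures, fewer cells in a given phase and less RNA per cell cannot be told apart.

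**Figure D1:**
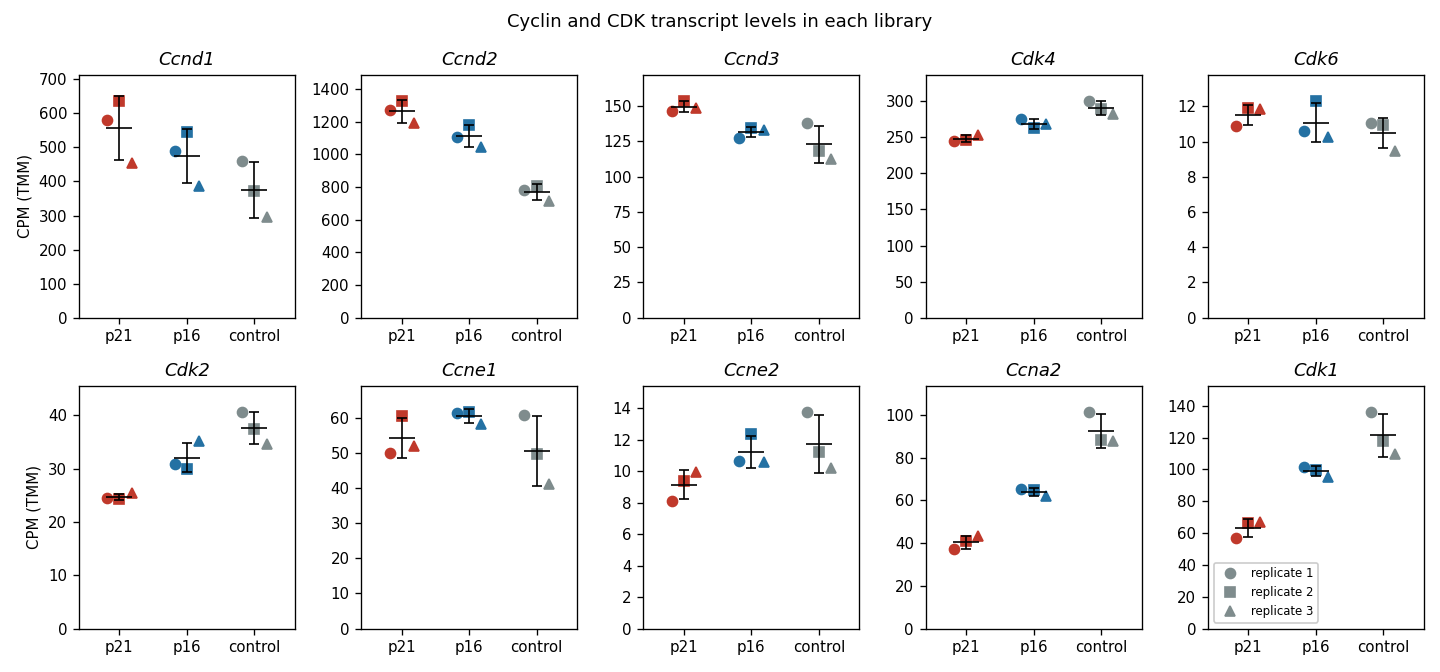
CPM after TMM scaling (vertical axis, from 0) of each cyclin and CDK gene in the 3 p21, 3 p16 and 3 control libraries, with the mean and SD as bars and a marker for each replicate number. The p21 libraries lie above all control libraries for Ccnd2 and Ccnd3 and below all of them for Cdk4, Cdk2, Ccne2, Ccna2 and Cdk1.

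Ccnd2, a D cyclin induced by growth signals and a partner of Cdk4 and Cdk6, stood at 1273, 1328 and 1191 CPM in p21 libraries, against 783, 809 and 717 CPM in control libraries. All p21 libraries were higher than all control libraries. The difference was 1.64-fold (log2 fold change 0.72 ± 0.07 SE, adjusted p = 4.92e-05, edgeR), the largest increase among the members.

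Ccnd1, the D cyclin best known as a growth factor sensor of fibroblasts, stood at 580, 637 and 454 CPM in p21 libraries, against 459, 373 and 295 CPM in control libraries. The groups overlapped, since p21 replicate 3 lay below control replicate 1. In each group replicate 3 held the lowest value. The increase was 1.48-fold (log2 fold change 0.57 ± 0.18 SE, adjusted p = 0.0308, edgeR). It no longer passed when 1 library was left out, with an edgeR adjusted p of 0.0801 for control replicate 2, 0.0858 for control replicate 3, 0.0824 for p21 replicate 1 and 0.0988 for p21 replicate 2. With replicates 1 and 2 alone it passed at a like size (log2 fold change 0.55, adjusted p = 0.0035, edgeR).

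Ccnd3, the remaining D cyclin, stood at 146, 154 and 148 CPM in p21 libraries, against 138, 118 and 113 CPM in control libraries. The p21 libraries lay closely together above the control libraries. The increase was 1.22-fold (log2 fold change 0.28 ± 0.07 SE, adjusted p = 0.0109, edgeR).

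Of the kinase partners of the D cyclins, Cdk4 fell and Cdk6 did not pass. Cdk4, the more abundant of these kinases here, stood at 245, 246 and 253 CPM in p21 libraries, against 300, 289 and 282 CPM in control libraries. This fall was small and without overlap, 1.17-fold (log2 fold change -0.23 ± 0.04 SE, adjusted p = 0.00227, edgeR). Cdk6, which takes the same cyclins, stood at 10.9, 11.9 and 11.8 CPM in p21 libraries and at 11.03, 10.95 and 9.48 CPM in control libraries. The groups overlapped and the difference did not pass (log2 fold change 0.13 ± 0.09 SE, adjusted p = 0.283, edgeR), with a 95% interval from 0.948-fold to 1.27-fold.

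Cdk2, the kinase of cyclins E and A, stood at 24.5, 24.4 and 25.4 CPM in p21 libraries, against 40.7, 37.4 and 34.6 CPM in control libraries. No libraries overlapped, and the fall was 1.52-fold (log2 fold change -0.60 ± 0.07 SE, adjusted p = 0.000257, edgeR).

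The paired E cyclin genes gave unlike values. Ccne1, encoding cyclin E1, stood at 49.97, 60.5 and 52.0 CPM in p21 libraries and at 60.7, 49.5 and 41.0 CPM in control libraries. The control libraries spread across the p21 values, and the difference did not pass (log2 fold change 0.10 ± 0.13 SE, 95% interval 0.884-fold to 1.3-fold, adjusted p = 0.543, edgeR). Ccne2, encoding cyclin E2, stood at 8.11, 9.39 and 9.93 CPM in p21 libraries, against 13.8, 11.2 and 10.2 CPM in control libraries. Its libraries did not overlap, though p21 replicate 3 and control replicate 3 were close, and it fell 1.28-fold (log2 fold change -0.36 ± 0.13 SE, adjusted p = 0.0446, edgeR). This call was lost with DESeq2 size factors (adjusted p = 0.0505), with the p16 libraries left out of the fit (0.0702), and without control replicate 1 (0.14), control replicate 2 (0.0732), p21 replicate 1 (0.162) or p21 replicate 2 (0.0844), all by edgeR. Its log2 fold change was -0.23 without control replicate 1.

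Ccna2, encoding cyclin A2 of S phase and early mitosis, stood at 37.2, 41.0 and 43.2 CPM in p21 libraries, against 102, 88.0 and 87.7 CPM in control libraries. The highest p21 value lay well below the lowest control value. The fall was 2.28-fold (log2 fold change -1.19 ± 0.07 SE, adjusted p = 1.1e-05, edgeR), the largest change in either direction among the members.

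Cdk1, the kinase that drives entry into mitosis, stood at 56.6, 66.1 and 66.6 CPM in p21 libraries, against 136, 118 and 110 CPM in control libraries. The groups were again fully apart, and the fall was 1.92-fold (log2 fold change -0.94 ± 0.09 SE, adjusted p = 5.41e-05, edgeR). Its promoter, printed above, held 7 of the motif matches searched for, more than the other 6 windows of members.

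Across 13 alternative settings, among them leaving out each p21 or control library in turn, the calls of Ccnd2, Ccnd3, Cdk4, Cdk2, Ccna2 and Cdk1 in this comparison held their direction and stayed past the threshold.

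**Figure D2:**
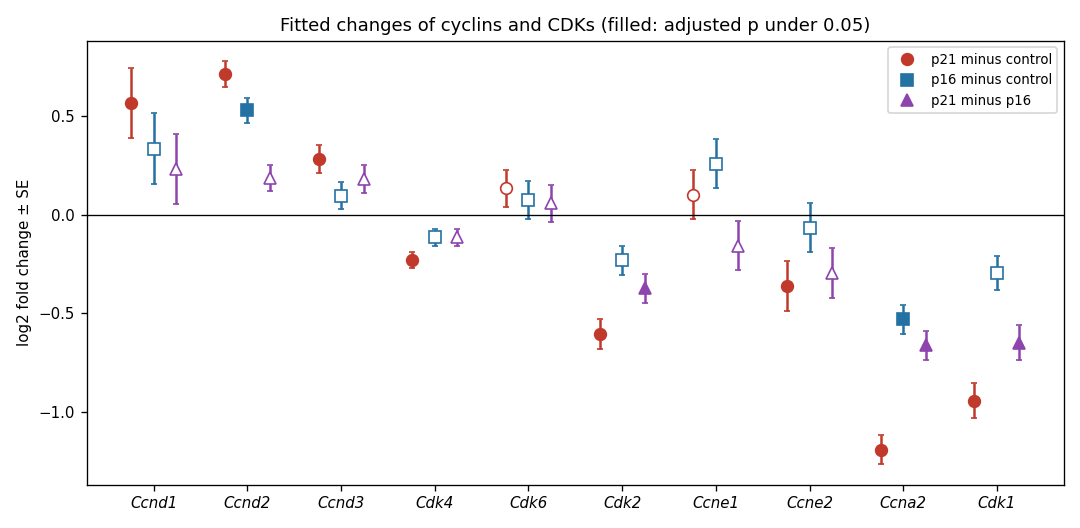
Log2 fold change with SE (vertical axis) of each cyclin and CDK gene for p21 or p16 minus control and for p21 minus p16, with filled markers where the adjusted p was under 0.05. D cyclins lie above 0 in the p21 comparison, up to 0.72 for Ccnd2, and Ccna2 and Cdk1 lie lowest, at -1.19 and -0.94.

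Cells with p16 were set against the same control libraries. The p16 libraries were registered under later sample numbers than the p21 and control libraries. A difference in when the libraries were made was not tested. It could not be told apart from p16 itself, here or in p21 minus p16. Of the members 2 passed, Ccnd2 higher and Ccna2 lower, out of 10, against 7.22% of all genes (3.57% higher, 3.65% lower). The p16 and control libraries did not overlap for 4 of the 10 members, 1 above and 3 below, against 28.7% of all genes (13.6% above, 15.1% below). The median log2 fold change was 0.01 for the members and -0.01 for all genes. With the replicate number as a block, 4 members passed, since Ccnd1 and Cdk1 passed as well, and with replicates 1 and 2 only, 3 did.

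Ccnd2 stood at 1105, 1180 and 1047 CPM in p16 libraries, against 783, 809 and 717 CPM in control libraries. No libraries overlapped, and it rose 1.44-fold (log2 fold change 0.53 ± 0.07 SE, adjusted p = 0.00523, edgeR). Ccnd1 stood at 490, 545 and 388 CPM in p16 libraries and at 459, 373 and 295 CPM in control libraries. The groups overlapped, replicate 3 was again the lowest, and the difference did not pass (log2 fold change 0.34 ± 0.18 SE, adjusted p = 0.285, edgeR). With the replicate block it passed at the same size (0.34, adjusted p = 0.0128, edgeR). Ccnd3 stood at 127, 135 and 133 CPM in p16 libraries and 138, 118 and 113 CPM in control libraries, and did not pass (log2 fold change 0.10 ± 0.07 SE, adjusted p = 0.441, edgeR).

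Cdk4 stood at 275, 262 and 268 CPM in p16 libraries, all below the 300, 289 and 282 CPM of the control libraries. The difference was small and missed the threshold (log2 fold change -0.11 ± 0.04 SE, 95% interval 0.866-fold to 0.986-fold, adjusted p = 0.13, edgeR). Cdk6, at 10.6, 12.3 and 10.2 CPM in p16 libraries, overlapped with control and did not pass (log2 fold change 0.08 ± 0.09 SE, adjusted p = 0.681, edgeR). Cdk2 stood at 30.9, 30.0 and 35.1 CPM in p16 libraries, and only p16 replicate 3 reached into the control values of 34.6 to 40.7 CPM. It did not pass (log2 fold change -0.23 ± 0.07 SE, adjusted p = 0.0918, edgeR), but with replicates 1 and 2 of each group it did (-0.35, adjusted p = 0.0319, edgeR).

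Ccne1 stood at 61.3, 61.7 and 58.2 CPM in p16 libraries, against 60.7, 49.5 and 41.0 CPM in control libraries. The p16 libraries were close together and overlapped only with control replicate 1. The difference did not pass (log2 fold change 0.26 ± 0.13 SE, adjusted p = 0.237, edgeR), and without control replicate 1 it did (0.42, adjusted p = 0.0435, edgeR). Ccne2, at 10.7, 12.4 and 10.6 CPM in p16 libraries, did not pass (log2 fold change -0.07 ± 0.12 SE, adjusted p = 0.801, edgeR), and its sign turned without control replicate 1 (0.07).

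Ccna2 stood at 65.4, 64.9 and 61.8 CPM in p16 libraries, against 102, 88.0 and 87.7 CPM in control libraries. No libraries overlapped, and the fall was 1.44-fold (log2 fold change -0.53 ± 0.07 SE, adjusted p = 0.00669, edgeR). Cdk1 stood at 101, 99.7 and 95.4 CPM in p16 libraries, all below the control values of 110 to 136 CPM. Its difference missed the threshold (log2 fold change -0.30 ± 0.09 SE, adjusted p = 0.072, edgeR) and passed with the replicate block (-0.29, adjusted p = 0.0321, edgeR), with DESeq2 (-0.29, adjusted p = 0.0234) and without control replicate 3 (-0.36, adjusted p = 0.0438, edgeR).

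The p21 libraries were also tested directly against the p16 libraries, which their later sample numbers set apart as well. Of the 10 members 3 passed in p21 minus p16, all lower, against 12.8% of all genes (6.19% higher, 6.64% lower). Libraries did not overlap for 7 of 10, 2 above and 5 below, against 36% of all genes (17.5% above, 18.5% below). Ccna2 was 1.58-fold lower in p21 than in p16 cells (40.5 ± 3.02 against 64.0 ± 1.95 CPM, SD, n = 3 each; log2 fold change -0.66 ± 0.07 SE, adjusted p = 0.00111, edgeR). Cdk1 was 1.57-fold lower in p21 cells (63.1 ± 5.64 against 98.8 ± 3.08 CPM; log2 fold change -0.65 ± 0.09 SE, adjusted p = 0.0024, edgeR). Cdk2 was 1.3-fold lower in p21 cells (24.7 ± 0.549 against 32.0 ± 2.74 CPM; log2 fold change -0.37 ± 0.07 SE, adjusted p = 0.0131, edgeR), which failed to pass with p21 replicate 1 left out (-0.36, adjusted p = 0.06, edgeR).

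For the other members this difference did not pass. In p21 cells Ccnd2 averaged 1264 ± 69.3 CPM, against 1111 ± 66.7 CPM with p16, without overlap (log2 fold change 0.19 ± 0.07 SE, adjusted p = 0.0909, edgeR). It passed with the replicate block (0.19, adjusted p = 0.0062, edgeR) and with DESeq2 (0.19, adjusted p = 0.0482). Ccnd1, with overlapping libraries, had a log2 fold change of 0.23 ± 0.18 SE (adjusted p = 0.434, edgeR) and passed with the block (0.23, adjusted p = 0.0464, edgeR). Ccnd3, with 149.5 ± 3.87 CPM in p21 cells against 132 ± 3.79 CPM with p16, had a log2 fold change of 0.18 ± 0.07 SE (adjusted p = 0.118, edgeR) and passed when only these groups were fitted (0.18, adjusted p = 0.0299, edgeR). Cdk4 (log2 fold change -0.11, adjusted p = 0.106) and Ccne2 (-0.30, adjusted p = 0.155) were lower in every p21 than in every p16 library without passing, by edgeR. Cdk6 (0.06, adjusted p = 0.727) and Ccne1 (-0.16, adjusted p = 0.447) overlapped between these groups and did not pass by edgeR.

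Levels of different members were compared as RPKM, CPM divided by the length in kilobases of each gene's merged exons in GENCODE M21. In p21 cells Ccnd2 (134 ± 7.37 RPKM, SD, n = 3) and Ccnd1 (118 ± 19.9 RPKM) came first, not separated from each other, and Cdk4 followed at 76.3 ± 1.44 RPKM. Ccne1 (20.3 ± 2.10), Ccnd3 (17.04 ± 0.441), Cdk1 (12.8 ± 1.14), Ccna2 (9.91 ± 0.738), Cdk2 (3.97 ± 0.0883), Ccne2 (2.62 ± 0.267) and Cdk6 (0.823 ± 0.0414 RPKM) came next in p21 cells, each pair of neighbours without overlap. In p16 cells Ccnd2 (118 ± 7.09), Ccnd1 (101 ± 16.9) and Cdk4 (82.6 ± 1.97 RPKM) led, with overlap between the first and the next and between Ccnd1 and Cdk4, and Ccna2 overlapped with Ccnd3 (15.7 ± 0.477 and 15.005 ± 0.432 RPKM). In control cells Cdk4 had the highest mean, 89.4 ± 2.81 RPKM, with every library above those of Ccnd2 (81.8 ± 5.05). The margin was small, from 86.0 RPKM in the highest Ccnd2 library to 86.9 RPKM in the lowest Cdk4 library. It rests on the lengths used, 3.249 kb for Cdk4 and 9.409 kb for Ccnd2. In CPM the control means were 291 for Cdk4 and 769 for Ccnd2. Ccnd1 (79.8 ± 17.3 RPKM) overlapped there with both, and in control replicate 1 it stood at 97.4 RPKM, above Cdk4 at 92.4 RPKM. Among the next genes in control cells, Cdk1 (24.6 ± 2.76), Ccna2 (22.6 ± 1.93) and Ccne1 (18.9 ± 3.71 RPKM) each overlapped with the next, down to Ccnd3 (14.02 ± 1.503 RPKM). Cdk6 was last in all 3 groups, at 0.790 ± 0.0789 RPKM in p16 and 0.750 ± 0.0623 RPKM in control cells.

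**Figure D3:**
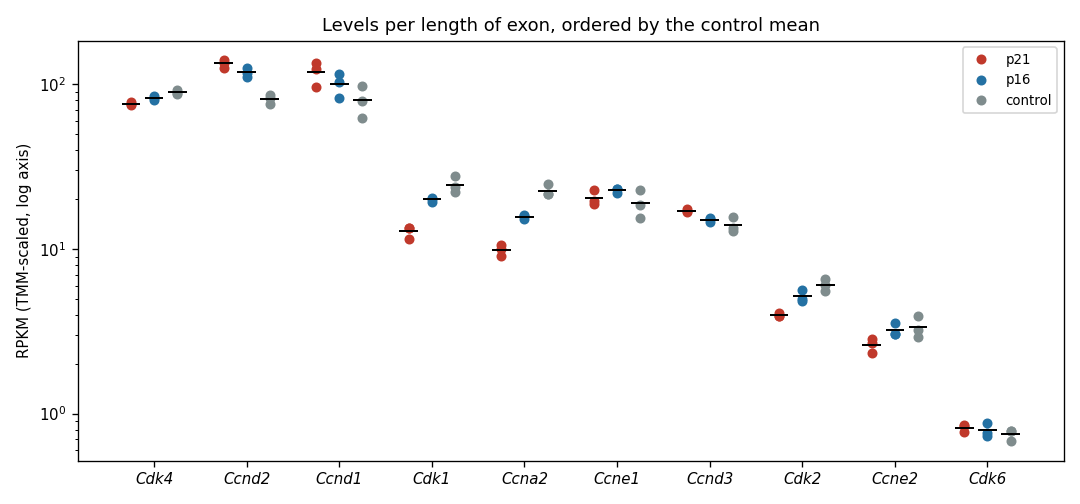
RPKM (log vertical axis) of each cyclin and CDK gene in the p21, p16 and control libraries, ordered by the control mean, with each point a library and the bar the mean. Cdk4 has the highest mean in control cells, 89.4 RPKM, though Ccnd1 overlaps with it, and in p21 cells its mean of 76.3 RPKM is below those of Ccnd2 and Ccnd1. The order between genes depends on the merged exon lengths.

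Sums and shares within a library show the same genes without the scaling between libraries bearing on the shares. Both were taken per length and so depend on the merged exon lengths. These were 4.709 kb for Ccnd1, 9.409 kb for Ccnd2 and 8.775 kb for Ccnd3. Not divided by length, their control means were 376, 769 and 123 CPM, so the D cyclin shares would differ. The summed RPKM of the D cyclins was 275, 294 and 240 in p21, 236, 256 and 209 in p16, and 196, 179 and 152 in control libraries. The p21 and p16 sums all lay above the control sums. That of Cdk4 and Cdk6 was 76.1, 76.5 and 78.8 in p21, 85.4, 81.6 and 83.2 in p16, and 93.2, 89.7 and 87.6 in control libraries, in the opposite order. Ccnd2 made up 49.99% ± 2.47 of D cyclin RNA in p21, 50.7% ± 2.32 in p16 and 46.9% ± 4.05 in control cells (SD, n = 3), and Ccnd1 43.6% ± 3.06, 42.9% ± 3.01 and 45.1% ± 4.19, with overlap between all groups. The share of Ccnd3 was 6.36% ± 0.601 in p21, 6.46% ± 0.691 in p16 and 8.01% ± 0.456 in control cells, without overlap with control. Ccne2 made up 11.4% ± 1.125 of E cyclin RNA in p21, 12.4% ± 0.798 in p16 and 15.1% ± 0.685 in control cells, also without overlap with control. Cdk6 made up 1.07% ± 0.0460 of the RNA of Cdk4 and Cdk6 in p21, 0.949% ± 0.112 in p16 and 0.831% ± 0.0509 in control cells. For these last 3 shares the exact two-sided permutation test of each inhibitor against control gave p = 0.1, the smallest that 3 against 3 libraries allow, and 0.25 after adjustment over 15 comparisons. The other comparisons of shares gave exact p-values of 0.3 to 0.7.

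Some exons of members overlap other genes, and without a stated strand or overlap rule their reads cannot be assigned with certainty. In GENCODE M21 the overlap with a protein-coding gene on the other strand covered 23.4% of the merged exons of Ccnd1 (with LTO1), 19.7% for Cdk4 (Tspan31), 17.4% for Ccne2 (Ints8), 12.5% for Ccna2 (Exosc9), 4.11% for Ccnd3 (Bysl) and 0.547% for Cdk2 (Pmel). The highest count in a library was 8149 for Tspan31, 4893 for Bysl, 4408 for Ints8, 2754 for Exosc9 and 69 for Pmel. LTO1 was not in the count table. Ccne2 itself had 567 to 1057 counts, fewer than the highest of Ints8. Antisense genes covered 3.95% and 3.91% of the merged exons of Ccnd2 and 2.63% of those of Cdk6. Cdk1 (chromosome 10, 69335146 to 69352938, minus strand) and Ccne1 (chromosome 7, 38097984 to 38107534, minus strand) had no overlap. Ccna2, the most changed member in p21 minus control, lies on chromosome 3 from 36564865 to 36572150, minus strand, and Ccnd2 on chromosome 6 from 127125162 to 127152193, minus strand. The positions of Ccnd1 are chromosome 7, 144929931 to 144939925, and of Cdk4 chromosome 10, 127063534 to 127067920.

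The genes around the members were counted by role. Of all genes tested, 39.9% passed in p21 minus control, 7.22% in p16 minus control and 12.8% in p21 minus p16. Inhibitors of CDKs moved both ways in p21 cells: of 7, 3 rose (Cdkn1a, Cdkn2a and Cdkn2b) and 3 fell (Cdkn1b, Cdkn2c and Cdkn2d), with a median log2 fold change of 0.33, or 85.7% called. The overexpressed gene is Cdkn1a in p21 cells and Cdkn2a in p16 cells, so its call there follows from the design. The counts and medians of this list include both. Cdkn2b, which encodes the Cdk4 and Cdk6 inhibitor p15, was 2.14-fold higher (90.6 ± 7.996 against 42.4 ± 2.74 CPM, SD, n = 3 each; adjusted p = 1.74e-05, edgeR). Cdkn2d, which encodes p19Ink4d, was 1.68-fold lower (adjusted p = 8.51e-05, edgeR). In p16 cells the overexpressed Cdkn2a and also Cdkn2b rose and Cdkn2d fell, with a median of 0.20, or 42.9% called. The Cdkn2d call there was lost without p16 replicate 1 (adjusted p = 0.0543, edgeR) or 2 (0.0701), and with the replicate block 6 of the 7 passed. In p21 minus p16 cells 2 were higher, Cdkn1a among them, and 4 lower, Cdkn2a among them, or 85.7% called.

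Among pocket proteins, the retinoblastoma family that represses E2F, Rbl1 stood at 12.7 ± 1.122 CPM in p21 and 22.3 ± 2.59 CPM in control cells, a 1.76-fold fall (adjusted p = 0.000181, edgeR), and the other 2 did not pass. That was 33.3% called, against 39.9% of all genes. In p16 cells 0 of the 3 passed by edgeR, and 1 (Rbl1) had an unadjusted p under 0.05. Rbl1 passed in p16 cells with DESeq2 (adjusted p = 0.0488), with the replicate block (0.0159, edgeR) and without control replicate 1 (0.0473, edgeR). Of 10 E2F and DP genes, 2 rose and 5 fell in p21 cells (median log2 fold change -0.18), and 1 rose and 2 fell in p16 cells (median -0.04). That was 70% called with p21 and 30% with p16, against 39.9% and 7.22% of all genes. E2f6, a repressor of the family, was 1.49-fold higher with p21 (71.4 ± 2.65 against 47.9 ± 2.84 CPM; adjusted p = 0.000111, edgeR). The atypical repressors E2f7 and E2f8, themselves E2F targets, were 2.05-fold and 2.03-fold lower with p21 (adjusted p = 0.000423 and 0.000307, edgeR). Of 14 E2F target genes of S phase 13 fell in p21 cells (median -0.74) and 5 in p16 cells (median -0.38). That was 92.9% with p21 and 35.7% with p16, against 20.7% and 3.65% of all genes called lower. The p16 count was 0 without any 1 of the 3 p16 libraries and with only the compared groups fitted. It was 1 without control replicate 2, 8 without control replicate 3 and 9 with the replicate block. The p16 count of E2F and DP genes, 3, was likewise 0 without any 1 p16 library or control replicate 2, and 1 without control replicate 1. It was also 1 with only the compared groups fitted and with replicates 1 and 2 only. Mcm5, of the replicative helicase, stood at 50.9 ± 3.78 against 95.4 ± 13.9 CPM in p21 and control cells, and Tk1, encoding thymidine kinase, at 31.9 ± 0.599 against 64.9 ± 13.3 CPM (1.87-fold and 2.03-fold lower, adjusted p = 0.000134 and 0.00018, edgeR).

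Regulators acting on the kinases fell as well. Of 10 activators and inhibitory kinases of CDKs, 6 fell and none rose in p21 cells (median log2 fold change -0.53), and 3 fell in p16 cells (median -0.14). That was 60% with p21 and 30% with p16, against 20.7% and 3.65% of all genes called lower. Cdc25b and Cdc25c, phosphatases that activate CDKs, were 2.45-fold and 2.4-fold lower with p21 (adjusted p = 6.52e-06 and 1.14e-05, edgeR). Pkmyt1, a kinase that inhibits Cdk1, was 2.09-fold lower with p21 (adjusted p = 1.61e-05, edgeR), so activators and an inhibitor of the same kinase fell together. In p21 minus p16 cells the same number, 6 of 10, were lower (median -0.40), against 6.64% of all genes called lower.

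Of 10 genes of cyclin degradation, 6 fell and 1 rose in p21 cells (median -0.52), 2 fell in p16 cells (median -0.18), and 6 were lower in p21 than in p16 cells (median -0.35). That was 70%, 20% and 60% called, against 39.9%, 7.22% and 12.8% of all genes. The p16 count was 0 without any 1 p16 library, control replicate 1 or control replicate 2, 0 with only the compared groups fitted, and 5 with the replicate block. Ube2c and Cdc20, of the complex that destroys mitotic cyclins, were 2.19-fold and 1.99-fold lower with p21 (adjusted p = 1.94e-05 and 3.01e-05, edgeR). Fbxo5, an inhibitor of that complex, was 2.2-fold lower (adjusted p = 6.59e-05, edgeR).

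The list of other cyclins holds the mitotic ones. Ccnb1, the main partner of Cdk1 in mitosis, stood at 38.0, 42.8 and 44.9 CPM in p21 libraries, 72.8, 77.05 and 73.7 CPM in p16 libraries and 107, 92.8 and 92.05 CPM in control libraries. The 3 groups did not overlap. Ccnb1 was 2.32-fold lower in p21 than in control cells (adjusted p = 1.14e-05), 1.3-fold lower in p16 than in control cells (adjusted p = 0.02) and 1.78-fold lower in p21 than in p16 cells (adjusted p = 0.000564), all by edgeR. The p16 call of Ccnb1 was missed without p16 replicate 1 (adjusted p = 0.0741), 2 (0.0676) or 3 (0.0616), by edgeR. Among the 16 other cyclin genes tested, Ccnb1 included, 2 rose and 5 fell in p21 cells (median -0.19), or 43.8% called, close to the 39.9% of all genes. In p16 cells 1 rose and 2 fell (median -0.05), or 18.8% against 7.22%. Between p21 and p16 cells 2 were lower with p21, or 12.5% against 12.8%, and 5 passed with the replicate block. The p16 count of 3 was 0 without p16 replicate 1 or 2 and 1 without p16 replicate 3. Ccna1 and Ccnb3 did not pass the filter on low counts. Ccng2, an atypical cyclin linked to arrest, was 1.55-fold higher in p21 cells (37.4 ± 2.6 against 24.1 ± 2.30 CPM; adjusted p = 0.000206, edgeR) and 1.32-fold higher in p16 cells (adjusted p = 0.0176, edgeR), though not past the threshold without p16 replicate 1 (0.0595) or 2 (0.0708).

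Of 14 CDKs outside the cell cycle core, 2 rose and 1 fell in p21 cells, or 21.4% called against 39.9% of all genes. In p16 cells 1 rose, or 7.14% against 7.22% of all genes, with medians of -0.01 in both. The p21 count was 5 without control replicate 1, and the p16 count 0 without p16 replicate 2. Cdk18 was 1.34-fold higher and Cdk5, best known from neurons, 1.23-fold higher with p21 (adjusted p = 0.000619 and 0.000788, edgeR). Of 10 genes known to raise Ccnd1 transcription, 1 rose and 3 fell in p21 cells (median -0.12), or 40% called, against 39.9% of all genes. Pdgfra, a growth factor receptor, stood at 12.4 ± 3.52 CPM in p21 and 29.4 ± 9.67 CPM in control cells, 2.37-fold lower (adjusted p = 0.00448, edgeR). Myc was 1.29-fold lower with p21 (adjusted p = 0.00112, edgeR). Yap1 was 1.1-fold higher with p21 (adjusted p = 0.037, edgeR). It did not pass with scaling by library size alone (adjusted p = 0.0699, edgeR), with only the compared groups fitted (0.0779) or with replicates 1 and 2 only (0.112). Nor did it pass without control replicate 2 (0.0655) or 3 (0.0935) or p21 replicate 1 (0.0794) or 2 (0.09). That list's count of 4 called genes was 2 without control replicate 2, p21 replicate 1 or p21 replicate 2, and with only the compared groups fitted.

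**Figure D4:**
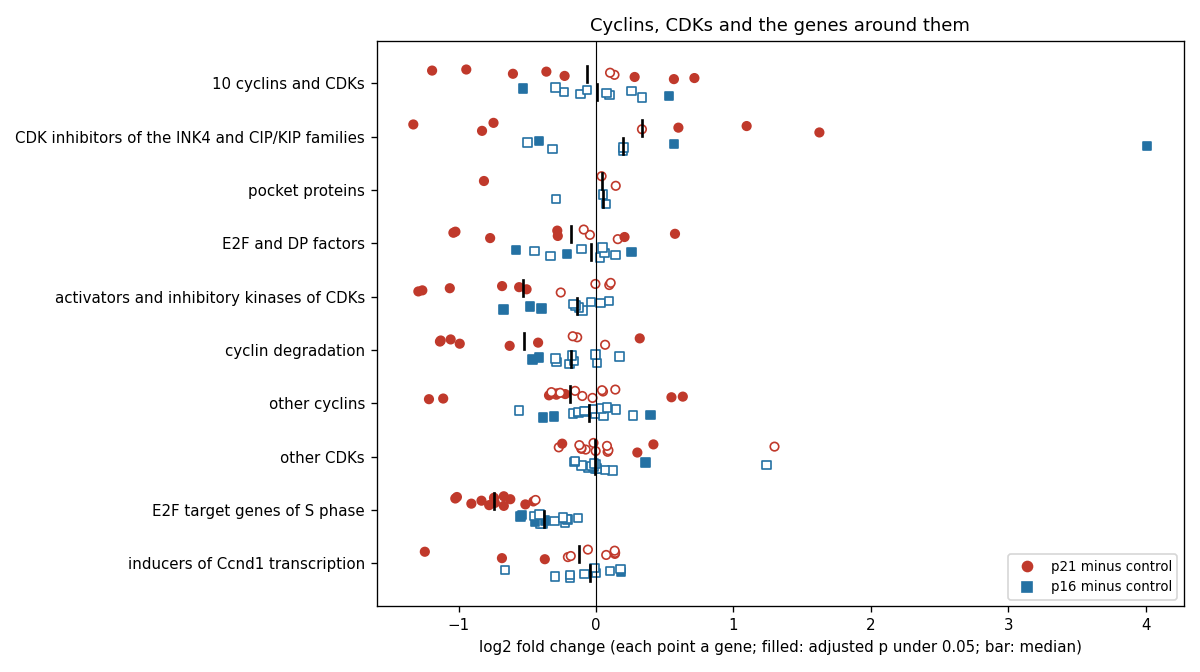
Log2 fold change (horizontal axis) of the cyclins and CDKs and of the genes around them, by role, for p21 minus control (circles) and p16 minus control (squares), with filled markers where the adjusted p was under 0.05 and a bar at the median. The E2F target genes of S phase lie to the left in both comparisons, with medians of -0.74 and -0.38, while the 10 cyclins and CDKs spread from -1.19 to 0.72 with p21.

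The genes with the most similar profile were sought among 10445 other genes averaging 2 or more in log2 CPM, by the root mean square difference of centred log2 CPM over the 9 libraries. For Ccna2 they were Cdca3 (0.05), Espl1 (0.05), which encodes the protease separase, and Uhrf1 (0.06), a factor that keeps up DNA methylation. For Cdk1 they were the condensin gene Smc2 (0.04), the kinesin gene Kifc1 (0.05) and Cdca8 (0.05), of the chromosomal passenger complex. For Ccnd1 they were Tmeff2 (0.05), Apbb1ip (0.06) and Nrp1 (0.06), a receptor for semaphorins and VEGF. Like Ccnd1, these last 3 genes were lowest in replicate 3 of each group, which follows from picking them for their match to Ccnd1. Nrp1 stood at 670, 655 and 505 CPM in p21, 586, 605 and 444 CPM in p16, and 501.5, 416 and 348 CPM in control libraries. Mki67, a marker of cycling cells, stood at 106 ± 11.8 CPM in p21, 176 ± 12.9 CPM in p16 and 268 ± 17.9 CPM in control cells (SD, n = 3), in the same order as Ccna2 and Cdk1.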

How the data were processed

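RNA of 9 fibroblast libraries was analysed from read counts per gene symbol, which the authors deposited without normalisation. The tools named per the submitters' processing notes are featureCounts 1.4.6 of Subread, Bowtie2 2.2.6 and TopHat2 2.0.14, with build mm10. Annotation, strand setting and treatment of multiply matching reads are not given in these sources. Groups and replicate numbers come from the titles. Genes were kept with filterByExpr (14572 of 24062), scaled by TMM and fitted in a single model of the 3 group means with edgeR 4.0.16 in R 4.3.3 (quasi-likelihood test, Benjamini-Hochberg, threshold 0.05). The SE is the log2 fold change over the root of F, and the 95% interval uses the fit's degrees of freedom. The code was tested on simulated data. Library pairs within a group differed beyond counting noise (chi-square per degree of freedom 10.6 to 104), so none were merged. Members and lists were chosen with earlier results of these data known. Named genes were the members, Cdkn1a, Cdkn2a, Mki67 and Ccnb1, up to 3 called genes per list by lowest adjusted p in p21 minus control, and the nearest profiles; Cdkn1b and Cdkn2c are named without values, chosen after their values were seen.

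Same-numbered libraries deviated together from the means of their groups, with correlations of 0.251, 0.109 and 0.545 for p16 and control and of 0.159, 0.287 and 0.478 for p21 and p16, all above 0.1. The values reported carry no block for the replicate number. Because of these correlations, which are evidence from the data and not from the labels, the blocked values are given beside results whose call they change. For p21 and control the same-numbered correlations were 0.183, 0.0253 and 0.489. Replicates 1 and 2 also went together across numbers, with correlations of 0.0437 to 0.358 over the comparisons. The highest, 0.358 for p21 replicate 2 with control replicate 1, exceeded the same-numbered values of both. Replicate 3 against replicates 1 and 2 of the other group gave -0.456 to -0.0562. These values thus set replicate 3 apart and do not show that replicates 1 and 2 are paired by number. Alternatives were DESeq2 1.42.0, other scalings, no filter, the replicate block, 2 groups only, replicates 1 and 2 only and each library left out.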

Additional observations from a re-analysis of the deposited data

How the results depend on the processing

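No call of a named gene turned direction under the alternatives run. Of 130 values of members per comparison (10 genes, 13 settings), 120 kept their side of the threshold in p21 minus control and 10 lost it; in p16 minus control 124 kept it and 6 newly passed; in p21 minus p16 125 kept it, 1 lost it and 4 newly passed. Uncalled values changed sign in 4 cases (Cdk6, Ccne1 and Ccne2). With the replicate block, members called came to 4 in p16 minus control and 5 in p21 minus p16, and were 8 in p21 minus control, as without it. All genes called came to 2473 and 3496 with the block, against 1052 and 1870 without it, and to 7241 against 5820 in p21 minus control. In p16 minus control all genes called were 1808 with DESeq2, 508 with only the compared groups in the fit, and 582 with replicates 1 and 2. With each library left out in turn they ranged from 219 to 875 in p16 minus control, from 616 to 1810 in p21 minus p16 and from 4233 to 5776 in p21 minus control. Members called ranged from 6 to 8 in p21 minus control and from 2 to 3 in each of the other comparisons. Not divided by length, the Cdk6 share differed by 0.956 points in p21 minus control, 0.478 in p16 minus control and 0.478 in p21 minus p16, against 0.236, 0.118 and 0.118 per length, since Cdk6 has the longer merged exons. Of the list counts, 135 of 143 stayed within 1.5 times in p21 minus control, 96 of 143 in p16 minus control and 117 of 143 in p21 minus p16. Scaling by library size alone left 41.7% of called genes higher in p21 minus control and 39.4% in p16 minus control, against 48.2% and 49.4%. In counts, library size alone left 444 higher and 683 lower in p16 minus control, against 520 and 532. Where not stated, the cause was not tested. Cdk6 and Ccne2, at 8.11 to 13.8 CPM, rest on the fewest reads among the members.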
